A study of Mus musculus with 2 samples.

Results

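The genes described here are Ifi203, Ifi204, Ifi205 and Aim2, interferon-inducible genes of the mouse Ifi200 (PYHIN) family. They were chosen by their symbol in the array annotation, from a list of 5 symbols, and stand among 22088 genes with a symbol. The fifth symbol on the list, Mnda, matched no row and was not analysed here; RefSeq (assembly GRCm38.p6) now lists it as Ifi211. Each of the 4 genes had 1 probe set.

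The samples were macrophages grown from bone marrow of wild-type or Oasl1-/- C57BL/6J mice, differentiated over 7 days in medium with L929 cell supernatant, which supplies macrophage growth factor. Both genotypes were given poly(I:C), a double-stranded RNA made to stand in for virus, at 10 µg/ml for 12 h, and no untreated cells were analysed here. RNA was taken from fractions 9 to 11 of 16 fractions of a sucrose gradient of 10% to 50%, which hold mRNA bound by several ribosomes, and was measured on Affymetrix Mouse Gene 1.0 ST arrays. There was 1 array per genotype, so no value has a replicate error and the genotypes could not be tested against each other.

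OASL1 is known as a brake on translation of Irf7, a factor that amplifies production of type I interferon, and the comparison asks which polysomal mRNAs differ without it. Proteins of the Ifi200 family carry, in most members, an N-terminal pyrin domain, which binds other pyrin domains, and a C-terminal HIN domain, which binds DNA. AIM2 binds double-stranded DNA in the cytosol and recruits the adaptor ASC, encoded by Pycard, to activate caspase-1. The Ifi200 proteins act in the nucleus and cytoplasm, and type I interferon induces many of these genes in macrophages.

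The windows around the transcription starts are shown first, because neighbouring family genes share a short motif there. They are RefSeq sequences of build GRCm38.p6, from 250 bases before to 50 bases after a start, written 5′ to 3′ on the gene's strand. Capitals mark each match to the core of the interferon-stimulated response element, through which type I interferon induces genes, searched on both strands. The 5 windows shown are those of 3 of the 4 genes and, for comparison, of 2 neighbours, 1 with a small and 1 with a large difference. The table gave no window for Ifi204.
Aim2 (chr1:173420354-173420653, plus strand): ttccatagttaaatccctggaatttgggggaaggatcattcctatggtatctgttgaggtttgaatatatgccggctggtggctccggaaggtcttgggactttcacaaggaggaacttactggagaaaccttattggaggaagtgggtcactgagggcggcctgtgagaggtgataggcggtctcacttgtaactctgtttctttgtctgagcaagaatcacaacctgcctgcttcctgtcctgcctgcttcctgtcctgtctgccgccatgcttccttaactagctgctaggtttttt
Ifi203 (chr1:173942443-173942742, minus strand): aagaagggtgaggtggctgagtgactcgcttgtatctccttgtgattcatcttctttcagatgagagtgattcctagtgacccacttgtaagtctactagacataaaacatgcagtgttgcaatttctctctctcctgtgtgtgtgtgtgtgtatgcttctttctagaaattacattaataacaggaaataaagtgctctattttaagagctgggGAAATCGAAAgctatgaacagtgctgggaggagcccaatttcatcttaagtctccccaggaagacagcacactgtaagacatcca
Ifi205 (chr1:174031706-174032005, minus strand): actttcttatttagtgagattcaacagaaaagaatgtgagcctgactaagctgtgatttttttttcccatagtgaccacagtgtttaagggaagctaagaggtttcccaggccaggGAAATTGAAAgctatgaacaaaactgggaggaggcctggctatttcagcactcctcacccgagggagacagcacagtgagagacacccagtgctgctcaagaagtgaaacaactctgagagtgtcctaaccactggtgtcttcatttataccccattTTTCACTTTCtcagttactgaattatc
Ifi207, AI607873 on the array (chr1:173741760-173742059, minus strand): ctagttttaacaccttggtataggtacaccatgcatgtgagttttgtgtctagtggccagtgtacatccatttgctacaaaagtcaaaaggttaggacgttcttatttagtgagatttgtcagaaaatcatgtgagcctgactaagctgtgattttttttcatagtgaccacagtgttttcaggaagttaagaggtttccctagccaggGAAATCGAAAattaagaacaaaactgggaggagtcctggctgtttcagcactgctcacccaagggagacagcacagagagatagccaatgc
Ifi208, E430029J22Rik on the array (chr1:173673415-173673714, plus strand): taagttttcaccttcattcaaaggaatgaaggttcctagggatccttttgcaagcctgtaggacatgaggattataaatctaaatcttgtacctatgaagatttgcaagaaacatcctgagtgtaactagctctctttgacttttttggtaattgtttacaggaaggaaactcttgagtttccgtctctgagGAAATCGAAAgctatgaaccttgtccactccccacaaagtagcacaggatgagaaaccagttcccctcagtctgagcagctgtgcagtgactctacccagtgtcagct

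Ifi205 held the match GAAATTGAAA, which began 134 bases before the start, and a second one, GAAAGTGAAA on the opposite strand, within the bases after it. Ifi203 held GAAATCGAAA, which began 35 bases before the start shown; another annotated start of Ifi203, whose window overlaps this one, had no match. The window of Aim2 had no match. Aim2 has several RefSeq transcripts and the table gave 1 window, so other starts were not searched. Of 11 family genes on the array, 10 had a window and 7 of these held the core, whereas 3.99% of the 27025 genes with a window did. The gamma-activated site, searched as TTCNNNGAA, was present in the window of 1 of the 10, Ifi202b, and in 9.55% of all genes.

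Some of the family windows were near-identical and others were not. Those of Ifi206 and Ifi208 were identical at 279 of 281 aligned bases, and those of Ifi213 and Ifi208 at 282 of 285. Ifi209 and Ifi214 were identical at 287 of 299 aligned bases, but at the place of the core in Ifi214 the window of Ifi209 read TAAATCGAAA, a G1T substitution counted from the first base of the match in Ifi214, GAAATCGAAA. The windows shown for Ifi203 and Ifi205 were identical at only 137 of 197 aligned bases. Matches in near-identical windows are not separate occurrences, so the count of genes with the core is not one of independent genes. A match describes letters and shows no bound factor.

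The polysomal signals of all 4 genes were higher in the Oasl1-/- array, by 1.15-fold to 1.89-fold. Ifi205 and Ifi203 had the larger differences, and Aim2 and Ifi204 the smaller ones. Signals are deposited log2 values from RMA, which scales arrays to each other, so each difference is relative to other genes. The deposited values did not have the same distribution on both arrays, with a median of 5.04 in wild-type and 5.13 in Oasl1-/- cells. The signal of an mRNA in the polysomal fractions reflects both its abundance and how much of it carries several ribosomes, which were not separated, and in bulk samples fewer cells with an mRNA and less of it per cell cannot be told apart.

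Ifi205 encodes p205, which in mouse macrophages is known to promote expression of Pycard. The 10 probes of its set span 175942117 to 175961886 of chromosome 1, minus strand (NCBIM37). Its log2 signals were 9.70 in wild-type and 10.62 in Oasl1-/- cells, which differed by 0.92 (1.89-fold). Both signals lay well above background, and the Oasl1-/- array was the higher one. Differences of 98.1% of the 7835 genes compared were smaller. These are the genes whose higher log2 signal was at least 7, a floor set near background: the central 95% of 5222 intron controls reached up to 7.13 in wild-type and 7.34 in Oasl1-/- cells.

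Ifi203, an interferon-induced nuclear protein gene, has a probe set of 16 probes at chromosome 1, 175850531 to 175872623, on the minus strand. Its log2 signals were 9.48 in wild-type and 10.32 in Oasl1-/- cells, which differed by 0.83 (1.78-fold). This difference was larger than in 97.5% of the genes compared. It was close to Ifi205 in the size of the difference.

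Ifi204 encodes p204, a transcriptional cofactor that also senses DNA and signals through STING. Its log2 signals were 10.52 in wild-type and 10.72 in Oasl1-/- cells, which differed by 0.20 (1.15-fold). This was the smallest of the 4, and differences of 79.0% of the genes compared were smaller. The highest signal on the arrays was 13.80, so neither signal of Ifi204 was at the top of the range. The 21 probes are annotated over 166 kb, from 175677424 to 175843053 on the minus strand of chromosome 1. In the newer assembly Mndal and Ifi211 lie between Ifi204 and Ifi203, and whether probes of the set also bind their transcripts was not tested.

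Aim2, the cytosolic DNA receptor, had log2 signals of 7.28 in wild-type and 7.68 in Oasl1-/- cells, which differed by 0.41 (1.33-fold). Both were close to background, 0.15 and 0.35 above the upper end of the intron controls on the respective array. Its 35 probes, the most of the 4 sets, lie at chromosome 1, 175385495 to 175396171, on the plus strand. Of the 4 genes it had the signals nearest to background.

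**Figure D1:**
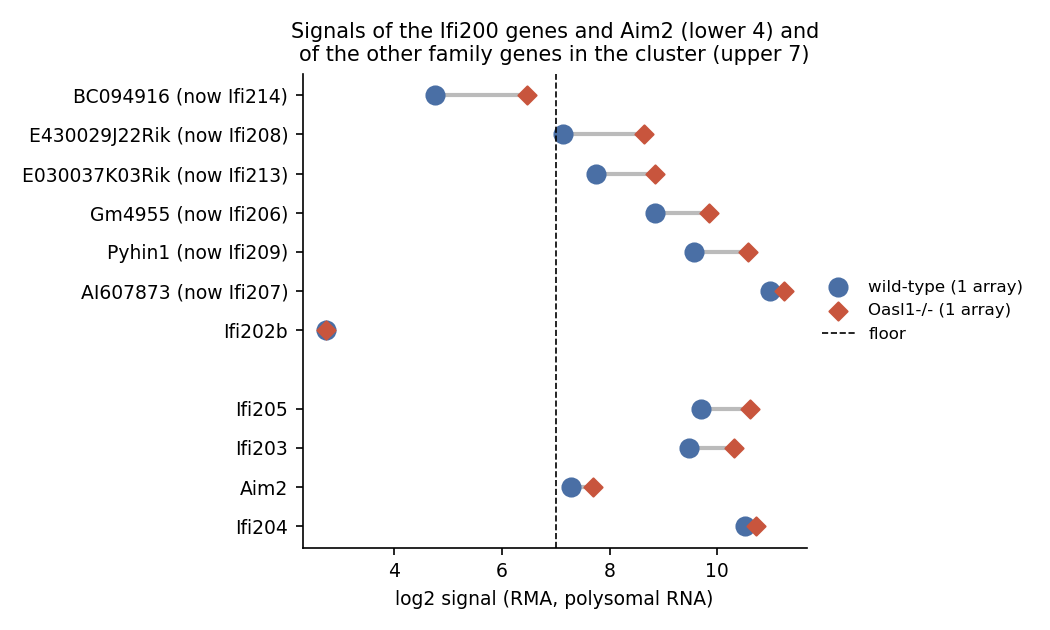
Log2 polysomal signals (x axis) of Ifi203, Ifi204, Ifi205 and Aim2 and of the 7 other family genes of the cluster (y axis), with 1 wild-type array (circles) and 1 Oasl1-/- array (diamonds); the dashed line is the floor of 7. Ifi205 moves from 9.70 to 10.62 and Ifi204 from 10.52 to 10.72, while Ifi202b stays near 2.7 on both arrays.

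Set against all genes, 2 of the 4 were at least 1.5-fold higher in the Oasl1-/- array, where 5.27% of the genes compared were. For a 2-fold higher signal the count was 0 of 4, where 1.57% of the genes compared passed. None was lower, and 39.1% of all genes compared were higher by any amount. The median log2 difference was 0.62 for the 4 genes and -0.09 for all 7835 genes, over which the SD was 0.39 and the MAD-based SD 0.32. Ifi204 lay within that MAD-based SD of the median gene. At 2-fold, 123 genes were higher and 51 lower, 70.7% of them higher, a share of 82.9% after centring on the median gene and 85.2% after removal of a loess trend. At 1.5-fold, 6.28% of the genes compared were lower and the higher share was 45.6%, or 64.9% after centring. After centring Ifi205 just reached 2-fold, with a log2 difference of 1.01, and 1.98% of the genes compared were at least 2-fold higher.

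**Figure D2:**
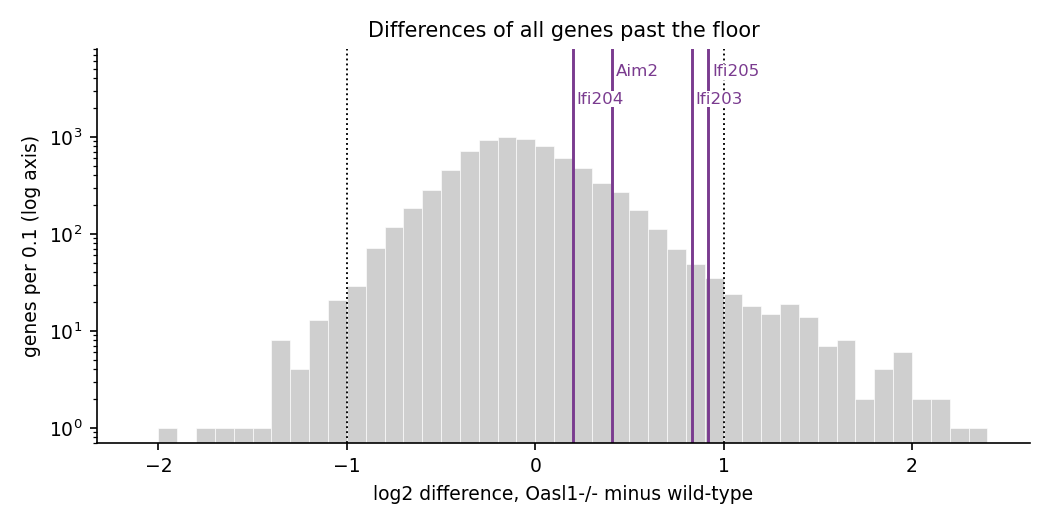
Number of genes past the floor (y axis, log scale) by log2 difference, Oasl1-/- minus wild-type (x axis, bins of 0.1); purple lines mark the 4 genes and dotted lines a 2-fold difference. Ifi203 and Ifi205, at 0.83 and 0.92, stand in the upper tail, and Ifi204, at 0.20, on the shoulder of the distribution.

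Many genes had differences like these. The closest in log2 difference, over 2 arrays, were Pgcp for Ifi205, Csrnp1 for Ifi203, Unc13d for Aim2 and Scyl2 for Ifi204, each with a gap under 0.05. Within 0.05 of the difference of Ifi205 there were 35 genes, and within 0.05 of that of Ifi204 there were 530. With 2 arrays such likeness is of 1 number and sets no gene apart.

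The 4 genes lie in a cluster of 11 probe sets over 576 kb, from 175385495 to 175961922 of chromosome 1, all of them family genes by current name. Of the 7 others, 5 passed the floor, all higher in the Oasl1-/- array, where 39.1% of all genes compared were higher by any amount. At least 1.5-fold higher were 4 of them and at least 2-fold 3, beside the 5.27% and 1.57% of all genes. Those 3, now Ifi206, Ifi208 and Ifi213, have the near-identical windows described above. Whether their probe sets bind each other's transcripts was not tested, so the counts need not be of independent genes. E430029J22Rik, now Ifi208, had log2 signals of 7.14 in wild-type and 8.64 in Oasl1-/- cells, which differed by 1.50 (2.82-fold). Its wild-type signal was only 0.02 above the upper end of the intron controls. E030037K03Rik, now Ifi213, had signals of 7.75 and 8.85, a difference of 1.11 (2.15-fold).

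Gm4955, now Ifi206, had log2 signals of 8.84 in wild-type and 9.86 in Oasl1-/- cells (2.02-fold), and Pyhin1, now Ifi209, signals of 9.58 and 10.57 (1.99-fold). These sit on either side of the 2-fold threshold with nearly equal differences. With 32 added to the linear signals Gm4955 fell below 2-fold, at 0.97, and after centring Pyhin1 passed it, at 1.08. AI607873, now Ifi207, which lies next to Ifi204, had signals of 10.99 and 11.24, a difference of 0.25, close to that of Ifi204.

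Both other genes were below the floor. BC094916, now Ifi214, had signals of 4.75 and 6.47, and Ifi202b, which lacks a pyrin domain and is known to be expressed at low levels in C57BL/6 mice, signals of 2.72 and 2.74. Neither signal of either gene reached the upper end of the intron controls, so no fold is given. The annotated span of Ifi202b overlaps that of Ifi205 on the same strand, and at these signals the probe set of Ifi202b was at background while that of Ifi205 was not.

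Along the cluster the larger differences were not in 1 block. Gm4955, E030037K03Rik, Pyhin1 and E430029J22Rik stand between Aim2 and AI607873, then follow AI607873 and Ifi204 with small differences, and then Ifi203 and Ifi205 with larger ones. In the flanks of 500 kb, 0 of 27 probe sets passed the floor. These were mostly olfactory receptor genes, 20 of the 27, the highest log2 signal was 5.13 and none differed 1.5-fold, so the flanks hold no expressed gene with which to compare the cluster.

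**Figure D3:**
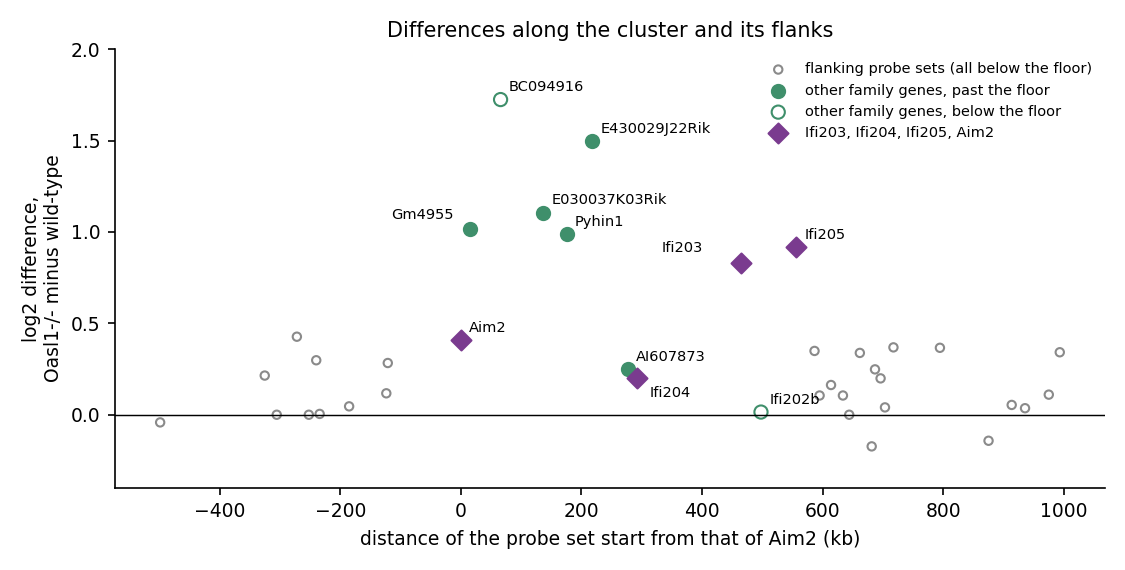
Log2 difference, Oasl1-/- minus wild-type (y axis), against the distance of each probe set's start from that of Aim2 in kb (x axis), with diamonds for the 4 genes, green circles for other family genes (open if below the floor) and small open circles for the flanks. The 9 cluster genes past the floor lie between 0.20 and 1.50, with AI607873 and Ifi204 lowest, and the 27 flanking probe sets between -0.17 and 0.43.

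Of the family genes past the floor, 6 had a window with the core described above. Their log2 differences were 1.50 for E430029J22Rik (Ifi208), 1.11 for E030037K03Rik (Ifi213), 1.02 for Gm4955 (Ifi206), 0.92 for Ifi205, 0.83 for Ifi203 and 0.25 for AI607873 (Ifi207). Of those without it, Pyhin1 (Ifi209), with the G1T substitution, differed by 0.99 and Aim2 by 0.41, both within the range of the first 6. Aim2 too had a site with 1 mismatch to the core, and 35.4% of all windows held a site with at most 1 mismatch. BC094916 (Ifi214), with the core, and Ifi202b, without it, were below the floor. These are single values per gene and a relation to the motif was not tested.

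Of the inflammasome genes past the floor, most were higher in the Oasl1-/- array by less than 1.5-fold. The inflammasome list held 25 symbols, of which 23 were found and 14 passed the floor. Of these, 10 were higher and 4 lower, 2 reached 1.5-fold higher and 0 reached 2-fold, with a median log2 difference of 0.29 against -0.09 for all genes. Of all genes compared, 39.1% were higher by any amount, 5.27% by 1.5-fold and 1.57% by 2-fold. After centring on the median gene, 4 of the 14 reached 1.5-fold higher, beside 7.30% of all genes compared. Pycard, the adaptor ASC, had signals of 9.00 in wild-type and 8.65 in Oasl1-/- cells, which differed by -0.35, the lowest of the 14. Casp1, the protease it recruits, had signals of 9.97 and 10.43, a difference of 0.46. Ifi205 was higher and Pycard lower in the same array, and a relation between them was not tested.

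Casp4, the caspase that responds to cytosolic lipopolysaccharide, differed by 0.65 and Gsdmd, whose cleaved product forms pores in the cell membrane, by 0.64. These were the 2 genes of the list past 1.5-fold. Il1rn, the interleukin-1 receptor antagonist, differed by 0.55, and P2rx7, the ATP-gated channel upstream of NLRP3, by 0.50. Of the cytokines that caspase-1 cleaves, Il18 had signals of 8.36 and 8.67, and Il1b was below the floor at 4.62 and 5.04.

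The DNA sensing list held 23 symbols, of which 22 were found and 17 passed the floor. Of these, 12 were higher and 5 lower, with a median log2 difference of 0.24 against -0.09 for all genes. Without a floor the median was 0.12 over all 22, against 0.034 for all genes. At least 2-fold higher were 2 of the 17, beside 1.57% of all genes, and 39.1% of all genes were higher by any amount. These 2 were Tlr9, the endosomal receptor for unmethylated CpG DNA, at 1.35, and Irf7, placed on the list with its difference of 1.33 already known. Tmem173, which encodes STING, the adaptor for p204 and cGAS, had signals of 10.39 and 10.75, a difference of 0.36. Zbp1, a nucleic acid sensor, differed by 0.52 and Irf3, the factor downstream of STING, by -0.27. Hmgb1 differed by -0.48, but 32 probe sets carry its symbol, so its value is uncertain. E330016A19Rik, which is Cgas, the cytosolic DNA sensor, was below the floor at 6.20 and 6.87.

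**Figure D4:**
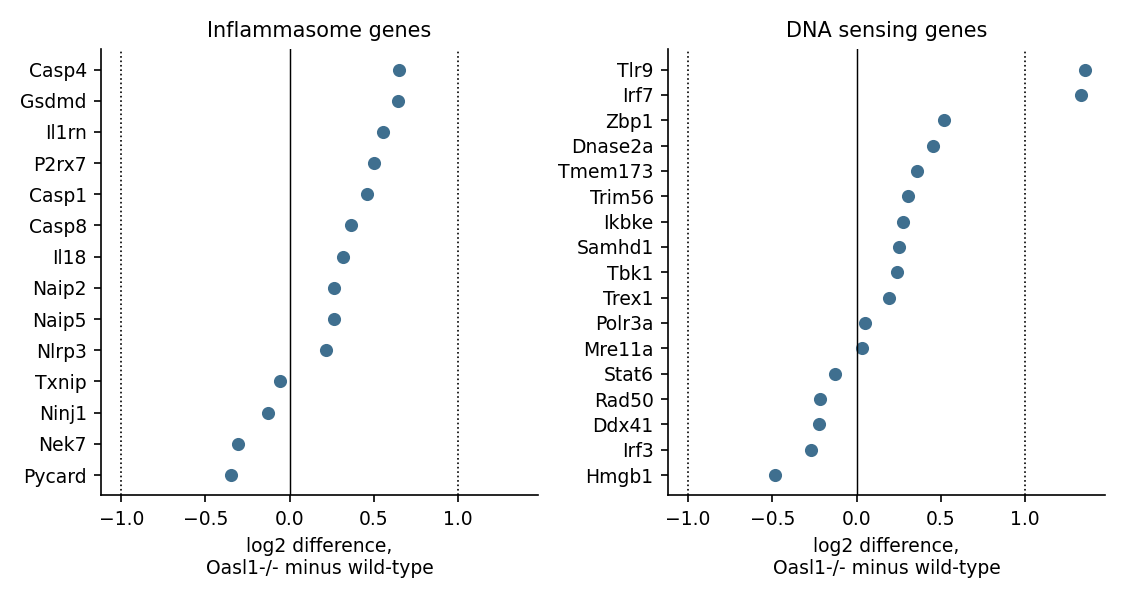
Log2 difference, Oasl1-/- minus wild-type (x axis), of the 14 inflammasome genes and 17 DNA sensing genes past the floor (y axis), 1 point per gene from 1 array per genotype; dotted lines mark a 2-fold difference. Inflammasome genes lie between -0.35 and 0.65, and Tlr9 and Irf7 stand beyond 2-fold in the other list.

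As a check of the labels, Oasl1 had log2 signals of 10.70 in wild-type and 9.14 in Oasl1-/- cells, which differed by -1.57, so that 33.7% of the linear signal was left. Which part of the gene was deleted is not stated in the labels, and probes elsewhere in the gene would not show the deletion. All 8 macrophage markers found passed the floor on both arrays, with a log2 of the summed signal of 14.94 in wild-type and 15.09 in Oasl1-/- cells. None of 28 markers of 7 other cell types did, the highest signal among them being 6.94.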

How the data were processed

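Polysome-associated RNA of 1 wild-type and 1 Oasl1-/- macrophage culture was hybridised to 1 array each. Log2 signals of 35556 probe sets were deposited by the authors. They are RMA values from GCOS scans per the submitters' processing notes; the series design text also names Expression Console, version 1.1, and affy, version 2.9.2, an R package. The deposited log2 ratio equalled the Oasl1-/- minus the wild-type signal, and the deposited fold (a ratio) equalled 2 to the power of its size, in all rows within 0.0001. The number of probes per set, a value of another kind, was deposited too. Coordinates are those of the deposited table (NCBIM37).

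Each gene was represented by its probe set with the highest mean signal, and the 7835 genes with a signal of at least 7 on 1 array were compared. Current symbols came from RefSeq (GRCm38.p6), through accessions for 7456 of these genes, else through symbols or synonyms. Motifs were searched in RefSeq promoter windows, and windows were aligned with biopython 1.88. Differences were recomputed after median centring, loess (statsmodels 0.14.6, span 0.3), quantile normalization, addition of 32 to the linear signals, averaging of probe sets and with other floors. The differences and the 3 scalings were tested on simulated arrays with known differences. The simulated arrays had no offset or trend between them, so removal of one was not tested, nor was the choice of probe set.

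Named genes were the 4 genes, all other family genes in the cluster, Pycard, Casp1, Il1b, Il18, Tmem173, Irf3 and the 4 largest differences past the floor of each list, the gene closest in difference to each of the 4, and Oasl1; E330016A19Rik was added after its value was seen. Members and lists were chosen with earlier results of these data known. The number of arrays limits the precision.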

Additional observations from a re-analysis of the deposited data

How the results depend on the processing

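Of 249 recomputed values, 2 changed sign. These were Ifi202b, at background, with -0.026 after quantile normalization, and the median of all genes, 0.034 without a floor. The 4 genes stayed higher under every scaling and pseudocount tried, with Aim2 at 0.54 after loess and 0.51 after quantile normalization. As deposited, 39.1% of all genes compared were higher by any amount. After centring 1 of the 4 genes was at least 2-fold higher, beside 1.98% of all genes compared. At least 1.5-fold higher after centring were 4 inflammasome genes, beside 7.30% of all genes compared. With a floor of 8, which removes Aim2, the median of the remaining 3 was 0.83. Without a floor the DNA sensing median was 0.12. After loess BC094916 differed by 2.20 and Ifi202b by 0.49, where the trend, fitted on genes past the floor, was extended below it. With the pseudocount BC094916 differed by 1.04. The signals of both genes lay below the upper end of the intron controls, so these values cannot show whether either gene changed. E030037K03Rik differed by 1.22 after loess and 1.00 with the pseudocount, and E430029J22Rik by 1.62 and 1.31.

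Of all genes, 2-fold lower ones were 0.408% after centring, 0.345% after loess, 0.319% with the pseudocount and 0.349% without a floor, and 1.5-fold lower ones 3.94%, 3.40%, 4.12% and 3.22%. Without a floor 0.625% were 2-fold and 2.90% 1.5-fold higher, since dim probe sets then enter. Centring subtracts the median difference of -0.09 from every gene, and the pseudocount makes differences smaller by construction. For shifts with loess and quantile normalization the cause was not tested. All 9 cluster genes past the floor stayed higher under each scaling, a count chosen after seeing the data. As deposited, 39.1% of all genes compared were higher by any amount. The median of all genes rose from -0.09 to 0 after centring, -0.005 after loess and -0.014 after quantile normalization. These scalings thus moved the median gene upward. No paired analysis was possible because each genotype has 1 array. Signal below the upper end of the intron controls limits Ifi202b and BC094916, and signal near that end Aim2 and E430029J22Rik.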
